A study of Homo sapiens with 8 samples.

Results

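Doxycycline-induced knockdown of EXOSC3 was compared with the uninduced state in H1 human embryonic stem cells at day 7, using 2 of the 8 RNA-seq libraries of the series. H1 is an established pluripotent cell line, grown here without feeder cells on Matrigel in a medium that contained puromycin. A hairpin against EXOSC3 (shEXOSC3) was transcribed in these cells when doxycycline was added, and 1 library was made with doxycycline and 1 without it. The comparison libraries were cells with an inducible non-silencing hairpin (shNS), with and without doxycycline at day 7, and the same 4 conditions at day 5. Doxycycline therefore also distinguished the shNS pairs, and each of the 4 pairs of libraries was deposited as 1 table. Each group held 1 library, so no replicate error exists within a condition, and no test of a difference between conditions was made. The labels do not say whether each hairpin line was a clone or a pool.

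The RNA exosome is a complex of ribonucleases that trims and degrades RNA from the 3′ end in the nucleus and the cytoplasm. EXOSC3 is 1 of its cap subunits, which sit on a ring of further subunits and guide RNA towards the catalytic subunits DIS3 and EXOSC10. Known nuclear substrates include short-lived transcripts that run upstream from active promoters, precursors of small nucleolar and small nuclear RNAs, and by-products of ribosomal RNA maturation. In embryonic stem cells, loss of its subunits is known to raise the levels of such transcripts.

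Levels are given in FPKM, fragments scaled to the length of the transcript and to the mapped fragments of the library, summed over the RefSeq accessions of a symbol. Differences are log2 ratios of the doxycycline library to the uninduced library after adding 1 FPKM to each, a scale that understates the change of low genes. Of 25503 symbols kept, 13116 had a mean of at least 1 FPKM over the 8 libraries and were compared. A symbol counted as higher or lower when it differed by at least 2-fold on this scale, a rule of size and not a test. The median log2 ratio of all 13116 symbols was -0.00. All 10 stem cell markers checked were present in both day 7 shEXOSC3 libraries, from NANOG at 30.8 FPKM without and 23.0 FPKM with doxycycline to L1TD1 at 868 and 584 FPKM. Symbols at 1 FPKM or more numbered between 12340 and 12768 per library. The 3 most abundant entries took between 6.21% and 7.16% of the FPKM in the day 7 libraries and between 23.8% and 27.6% in the day 5 libraries, so levels are compared within a day. From the steps between low FPKM values, the sequencing depth of the doxycycline library relative to its uninduced partner was estimated at 0.922 for shEXOSC3 and 1.333 for shNS at day 7.

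EXOSC3 RNA was 25.2 FPKM without and 12.3 FPKM with doxycycline in shEXOSC3 cells at day 7, which left 48.9%. In the shNS libraries of the same day it was 30.3 and 27.4 FPKM, which left 90.6%. The doxycycline library of the shEXOSC3 line held the lowest value of the 4. Most of the summed FPKM belonged to 1 of the 2 EXOSC3 accessions, which was 25.2 FPKM without and 9.13 FPKM with doxycycline and so kept 36.2%. The other accession was listed at 0 without doxycycline and at 3.22 FPKM with it. In the authors' deposited table the main accession had an unadjusted p of 0.0004 and an adjusted q of 0.341. At day 5 the summed level was 25.2 FPKM without and 11.3 FPKM with doxycycline, 45% of the uninduced level, so the RNA depletion at day 7 was about as deep as at day 5.

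On the log2 scale with 1 FPKM added, EXOSC3 itself stood at -0.98, just short of 2-fold, and so did not count as lower. The other 13 genes of the exosome core and its nucleases did not differ by 2-fold at day 7 either. The median log2 ratio of the 14 genes was -0.16, against -0.12 in shNS cells. Among the ring subunits, EXOSC6 was 11.5 FPKM without and 18.4 FPKM with doxycycline, a log2 ratio of 0.64, against 13 and 13.2 FPKM in shNS cells. EXOSC7 stood at the other end, with 87.9 FPKM without and 55.7 FPKM with doxycycline and a log2 ratio of -0.65, against -0.14 in shNS cells. The cap subunit EXOSC2 went from 58.6 to 41.6 FPKM (-0.49) and the ring subunit EXOSC9 from 89.5 to 68.7 FPKM (-0.38). The nucleases DIS3 (-0.29) and EXOSC10 (0.09) were closer to 0. Subunit RNAs thus lay on both sides of 0 around a lower EXOSC3.

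Of 16 exosome cofactors that reached 1 FPKM, out of 17 listed, 1 was at least 2-fold higher and none was lower, with a median log2 ratio of -0.05. Of all symbols, 1.88% were higher and 1.04% lower. The higher gene was ZFC3H1, a zinc finger protein that works with the helicase MTREX in the PAXT connection, which hands nuclear polyadenylated RNA to the exosome. ZFC3H1 was 6.83 FPKM without and 16.1 FPKM with doxycycline in shEXOSC3 cells and 6.64 and 8.55 FPKM in shNS cells. The induced shEXOSC3 library was the highest of the 4, and the log2 ratio was 1.13 against 0.32 in shNS. The authors' deposited table gave ZFC3H1 an unadjusted p of 5e-05 and a q of 0.105. At day 5 its log2 ratio was 0.57 in shEXOSC3 cells and -0.44 in shNS cells. ZCCHC8, a subunit of the NEXT adaptor, was 23.2 and 33.0 FPKM (0.49), while MTREX itself was at -0.09.

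Across all 13116 symbols, 246 were at least 2-fold higher with doxycycline in shEXOSC3 cells (1.88%) and 137 were lower (1.04%). In shNS cells 158 were higher (1.2%) and 111 lower (0.846%). Many of these calls were short RNAs or loci under 300 bases, a set of 617 symbols in which 149 were higher and 92 lower in shEXOSC3 cells, and 136 and 85 in shNS cells. Outside that set, 97 of 12499 symbols were higher (0.776%) and 45 lower (0.36%) in shEXOSC3 cells. The matching counts in shNS cells were 22 (0.176%) and 26 (0.208%). Of the 97 higher symbols, 89 were also above 0 in shEXOSC3 cells at day 5, where 50.2% of all 12499 were. Of these, 18 reached 2-fold there, which was 18.6% of the 97 and 23.4% of the 77 called at day 5 (0.616% of those compared). By comparison, 5 of the 97 reached 2-fold in shNS cells at day 7, or 5.15% of the 97 and 22.7% of the 22.

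**Figure D1:**
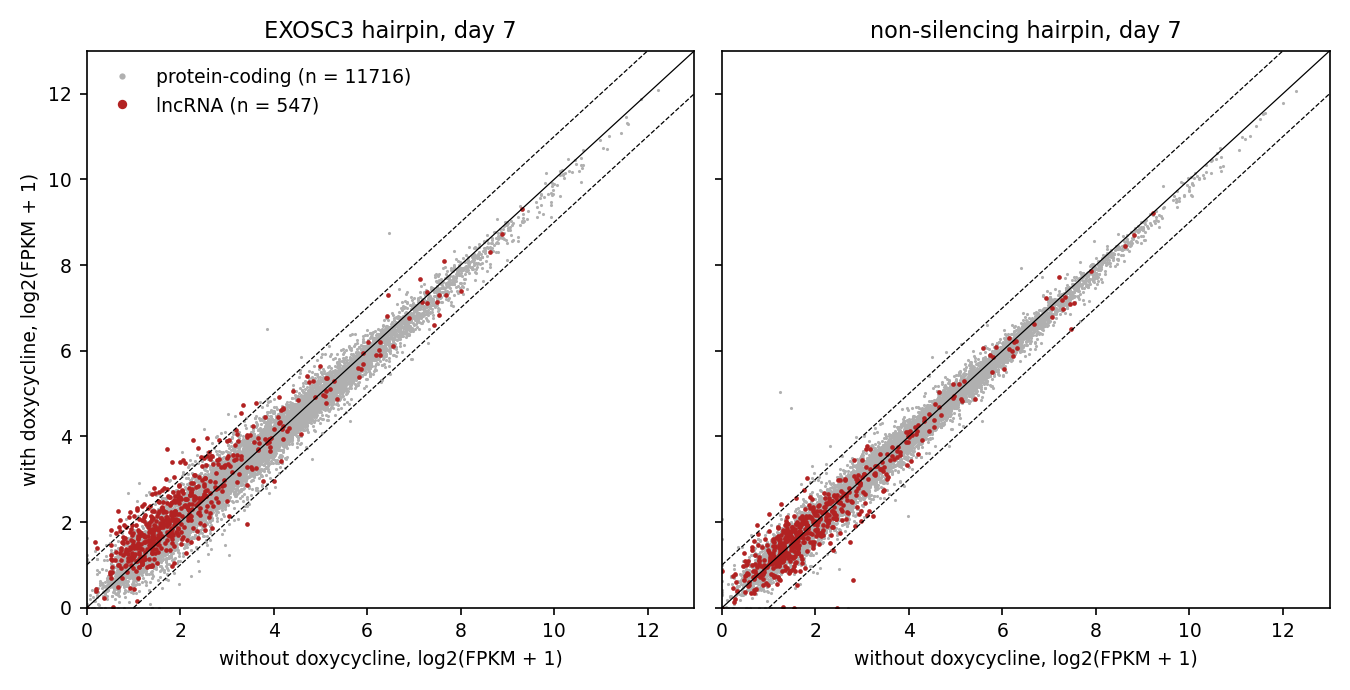
Level of each RNA as log2(FPKM + 1) without doxycycline (x axis) and with doxycycline (y axis) at day 7, for the EXOSC3 hairpin on the left and the non-silencing hairpin on the right; grey points are 11716 coding genes, red points 547 lncRNAs and dashed lines mark 2-fold. With the EXOSC3 hairpin 42 lncRNAs lie above the upper line and 2 below the lower line, and with the non-silencing hairpin 4 and 8 do.

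Long noncoding RNAs (lncRNAs), a class that includes antisense transcripts, intergenic transcripts and transcripts divergent from a coding gene's promoter, were higher more often with the EXOSC3 hairpin than with the control hairpin. Of 547 lncRNAs, 42 were at least 2-fold higher in induced shEXOSC3 cells (7.68%) and 2 were lower (0.366%). In shNS cells 4 were higher (0.731%) and 8 lower (1.46%). Protein-coding genes gave 53 higher (0.452%) and 40 lower (0.341%) of 11716 in shEXOSC3 cells, and 18 higher and 18 lower (0.154% each) in shNS cells. The median log2 ratio of lncRNAs was 0.28 in shEXOSC3 and 0.00 in shNS, while that of coding genes in shEXOSC3 was -0.02. A total of 400 lncRNAs (73.1%) lay above 0 in shEXOSC3 cells, against 50.3% in shNS cells and 47.3% of coding genes in shEXOSC3 cells. At a smaller size, a log2 ratio of 0.5 or more, 166 lncRNAs were higher (30.3%) and 26 lower (4.75%), against 43 (7.86%) and 46 (8.41%) in shNS cells. These counts depend on the scale for low RNAs: with a pseudocount of 5 FPKM, 3 lncRNAs and 7 coding genes were higher and 0 and 5 were lower. With the accession of the highest mean in place of the sum, 41 lncRNAs and 295 coding genes were higher. No source here gives the strand setting of the counting, so reads of an antisense RNA and of an overlapping gene cannot be told apart.

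The start regions of 4 of the 42 higher lncRNAs are shown because each begins close to, and runs away from, a coding gene that did not reach 2-fold. All 4 lie on the minus strand of GRCh38.p14 in RefSeq and cover 250 bases before to 50 bases after the annotated start. Capitals mark CCAAT (the CCAAT box), TATAAA (the TATA box), GGGCGG (the GC box) and CCGGAAG (the ETS site) on either strand. The ZNF143-AS1 window is chr11:9460649-9460948, that of NIPBL-DT is chr5:36876645-36876944, that of MANEA-DT is chr6:95577402-95577701 and that of SNHG10 is chr14:95534823-95535122.
ZNF143-AS1: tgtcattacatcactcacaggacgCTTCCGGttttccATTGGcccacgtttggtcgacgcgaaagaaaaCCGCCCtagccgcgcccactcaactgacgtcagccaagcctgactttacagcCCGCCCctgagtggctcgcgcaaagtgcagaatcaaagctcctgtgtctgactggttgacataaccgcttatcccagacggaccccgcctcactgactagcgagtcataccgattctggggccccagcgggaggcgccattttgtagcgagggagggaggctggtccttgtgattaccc
NIPBL-DT: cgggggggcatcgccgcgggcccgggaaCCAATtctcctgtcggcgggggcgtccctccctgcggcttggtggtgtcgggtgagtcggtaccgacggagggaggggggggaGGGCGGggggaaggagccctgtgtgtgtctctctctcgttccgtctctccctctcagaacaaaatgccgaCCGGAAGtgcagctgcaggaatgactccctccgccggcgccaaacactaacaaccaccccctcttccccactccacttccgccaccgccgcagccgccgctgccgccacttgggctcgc
MANEA-DT: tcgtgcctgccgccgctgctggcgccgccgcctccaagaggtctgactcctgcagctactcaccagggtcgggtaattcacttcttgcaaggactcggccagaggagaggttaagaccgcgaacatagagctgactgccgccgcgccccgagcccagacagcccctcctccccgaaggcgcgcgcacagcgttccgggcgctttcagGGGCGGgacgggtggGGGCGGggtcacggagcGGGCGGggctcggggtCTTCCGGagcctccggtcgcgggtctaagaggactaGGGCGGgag
SNHG10: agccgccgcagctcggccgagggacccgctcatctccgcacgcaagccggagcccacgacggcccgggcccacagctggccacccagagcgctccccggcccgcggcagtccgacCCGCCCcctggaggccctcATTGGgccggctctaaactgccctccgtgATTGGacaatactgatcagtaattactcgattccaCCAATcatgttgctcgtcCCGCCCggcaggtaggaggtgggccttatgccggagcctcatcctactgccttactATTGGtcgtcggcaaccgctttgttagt
The 4 windows hold between 58% and 70% G or C, and none holds TATAAA. The letters GGGCGG were in 71.9% of the 32 higher lncRNA windows that RefSeq gave, in 54.7% of 408 lncRNA windows, in 71.2% of 9710 coding windows and in 44.6% of all 27305 windows. CCAAT was in 40.6%, 39%, 37.3% and 35.7% of the same sets, CCGGAAG in 15.6%, 14.7%, 20.1% and 10.7%, and TATAAA in 6.25%, 7.84%, 5.54% and 12%. The median G and C content of the higher lncRNAs' windows was 64.3%, between the 62% of all lncRNAs compared and the 65.3% of coding genes. A match is a description of the letters in the window, not of a bound site.

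ZNF143-AS1, the divergent partner of the transcription factor gene ZNF143, was 3.86 FPKM without and 14 FPKM with doxycycline in shEXOSC3 cells at day 7. In shNS cells it was 4.30 and 5.19 FPKM. The induced shEXOSC3 library was the highest and the other 3 lay close together, with log2 ratios of 1.63 and 0.23. At day 5 the shEXOSC3 levels were 2.70 and 6.46 FPKM and the shNS levels 4.43 and 3.94 FPKM, so the induced knockdown library was again the highest. ZNF143 itself starts 314 bases away and was 12.8 FPKM without and 11 FPKM with doxycycline.

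NIPBL-DT, which diverges from the start of the cohesin loader gene NIPBL, was 3.16 and 10 FPKM in shEXOSC3 cells and 2.87 and 4.08 FPKM in shNS cells. Its log2 ratio was 1.40 at day 7 and 1.03 at day 5, against 0.39 and 0.21 in shNS. NIPBL starts 75 bases away and was 15.2 and 22.7 FPKM, a log2 ratio of 0.55 that was the same in shNS cells. The snoRNA host SNHG10 was 4.42 and 10.5 FPKM in shEXOSC3 cells and 5.76 and 4.6 FPKM in shNS cells, with log2 ratios of 1.09 and -0.27. GLRX5, an iron-sulfur cluster assembly gene whose start lies 178 bases from SNHG10, was 39.4 and 41.3 FPKM. MANEA-DT was 0.909 and 3.74 FPKM beside MANEA at 5.96 and 5.75 FPKM, at a distance of 84 bases. In each of these 4 pairs the lncRNA log2 ratio was above that of the coding neighbour. This follows from the choice of higher lncRNAs beside coding genes that did not reach 2-fold.

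Intergenic lncRNAs were among the higher RNAs as well. LINC00938 was 4.99 and 14.6 FPKM in shEXOSC3 cells, against 5.28 and 5.27 FPKM in shNS cells, with a log2 ratio of 1.38 at day 7 and 0.68 at day 5. LINC01139 was 9.22 and 25.4 FPKM, against 7.17 and 7.66 FPKM, with log2 ratios of 1.37 and 0.97 on the 2 days. LINC01876 was 2.52 and 9.62 FPKM, against 3.09 and 3.80 FPKM. For each of these the induced shEXOSC3 library was the highest of the 4 day 7 libraries. LINC01139 was named by a rule that also used the shNS and day 5 ratios, which LINC00938 met as well. LINC01806 had the largest lncRNA log2 ratio among those named here, 1.98 from 2.29 to 12 FPKM, but in shNS cells at day 5 it was at 0.97. Among transcripts that run divergently or antisense to a coding gene, ZNF674-AS1 went from 2.26 to 7.02 FPKM (shNS 2.92 to 2.88) and ZEB1-AS1 from 0.554 to 2.38 FPKM (shNS 0.648 to 0.741). LINC01089, at 8.81 and 22.4 FPKM, was at 7.01 and 9.94 FPKM in shNS cells, a shared direction of smaller size.

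**Figure D2:**
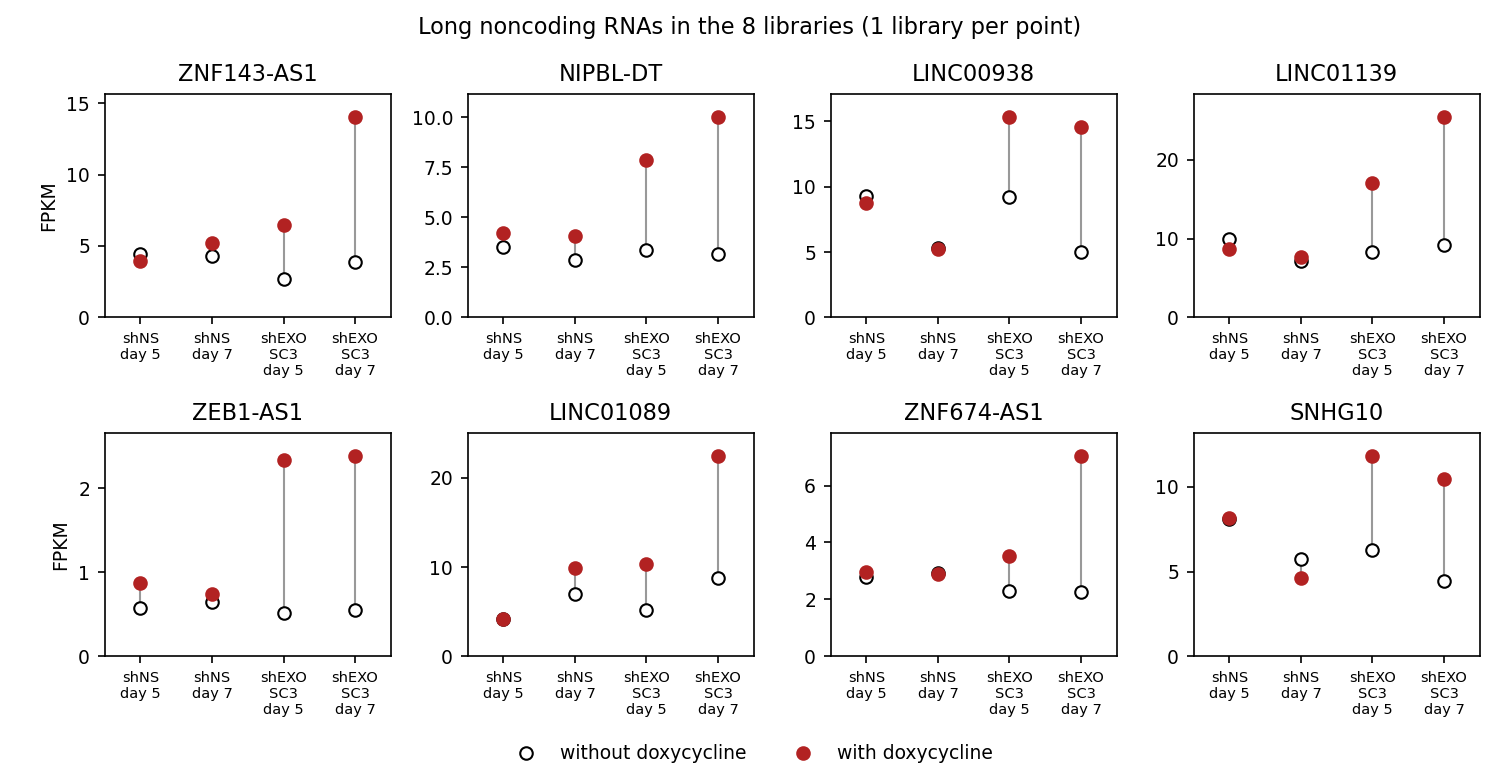
FPKM (y axis) of 8 lncRNAs in the 8 libraries (x axis: hairpin and day), with open points without and filled points with doxycycline and no error bars, because each group held 1 library. With the EXOSC3 hairpin the filled point is above the open one on both days for all 8, and at day 7 the filled EXOSC3 point is the highest of the 4, as for ZNF143-AS1 at 14 FPKM. The 8 were picked from the higher lncRNAs, some by a rule that also used the shNS and day 5 ratios. The shared pattern therefore follows largely from the choice.

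The 2 lower lncRNAs behaved differently across the hairpins and days. LINC-ROR, a primate lncRNA known for its expression in pluripotent cells, was 15.1 FPKM without and 6.73 FPKM with doxycycline in shEXOSC3 cells and 9.85 and 5.66 FPKM in shNS cells. Its log2 ratios were -1.06 and -0.70 at day 7 and -0.84 and -0.88 at day 5, so it was below 0 in both lines on both days. USP12-AS1 had a log2 ratio of -1.47 in shEXOSC3 and -1.21 in shNS cells at day 7, and 1.02 in shEXOSC3 cells at day 5. Well-known nuclear lncRNAs stayed within 2-fold. NEAT1, the scaffold of paraspeckles, was 3.72 and 5.49 FPKM (0.46), KCNQ1OT1, an imprinted antisense RNA, was 1.63 and 3.18 FPKM (0.67), and MALAT1, a nuclear speckle RNA, was 205 and 158 FPKM (-0.38). TERC, the RNA template of telomerase and a transcript whose 3′ end the exosome is known to trim, was 58.5 and 78.2 FPKM in shEXOSC3 and 67.7 and 57.8 FPKM in shNS cells.

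By name class, divergent transcripts (64 RNAs named -DT) had a median log2 ratio of 0.36 in shEXOSC3 cells, with 6 higher and 0 lower, against -0.06 in shNS cells with 0 in either direction. Antisense transcripts (228) had medians of 0.32 and 0.01, with 17 higher and 1 lower in shEXOSC3 cells and 2 and 2 in shNS cells. The 89 LINC transcripts had medians of 0.31 and -0.00, with 10 higher and 1 lower, against 1 and 3. The shares higher in shEXOSC3 cells were 9.38%, 7.46% and 11.2% for the 3 classes. Of all lncRNAs 7.68% were higher and 0.366% lower, and of all symbols 1.88% and 1.04%. Above 0 in shEXOSC3 cells were 81.2% of the divergent, 75.9% of the antisense and 78.7% of the LINC transcripts. The 3 classes thus had similar shares above 0, but 2 other name classes were shifted less. Uncharacterised LOC genes (50) had a median of 0.10 with 4 higher (8%), 0 lower and 62% above 0. In shNS cells the LOC median was -0.02, with 1 higher and 1 lower. The -IT and -OT transcripts (13) had a median of 0.02 with 53.8% above 0, below their shNS median of 0.37. The 23 snoRNA host genes measured, of 27 listed, had a median of -0.05: beside SNHG10, the host DANCR was 31.0 and 49.3 FPKM (shNS -0.03) and SNHG4 was 25.1 and 41.6 FPKM, while SNHG12 was 40.2 and 28.4 FPKM.

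The difference between lncRNAs and coding genes held at low and middle levels. RNAs with a mean of 1 to 2 FPKM had a median log2 ratio of 0.27 among 227 lncRNAs and 0.03 among 1291 coding genes. At 2 to 5 FPKM the medians were 0.38 (177 lncRNAs) and 0.05 (2174 coding genes), and at 5 to 20 FPKM they were 0.28 (98) and 0.01 (4428). At 20 FPKM or more the 45 lncRNAs, at -0.06, and the 3823 coding genes, at -0.09, were close. LncRNAs of 1 exon had a median of 0.49 (55 RNAs, 9 higher and 0 lower), those of 2 exons 0.35 (95), those of 3 or 4 exons 0.31 (206) and those of 5 or more 0.15 (127). The 55 lncRNAs of 1 exon had a median of 0.11 in shNS cells at day 7.

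At day 5 the lncRNAs were shifted the same way by a smaller amount. The day 5 median in shEXOSC3 cells was 0.19, with 18 higher (3.29%) and 3 lower (0.548%), against -0.03 in shNS cells with 1 in each direction (0.183%). Of the 42 lncRNAs higher at day 7, 37 were above 0 at day 5 (66% of all lncRNAs were), 20 had a log2 ratio of at least 0.5 (17.7% of all lncRNAs did) and 5 reached 2-fold, which was 11.9% of the 42 and 27.8% of the 18. In shNS cells at day 7 none of the 42 reached 2-fold, 7 reached 0.5 and their median was 0.08. Over all 547 lncRNAs, 286 were above 0 on both days in shEXOSC3 cells and 72 were at or below 0 on both, whereas in shNS cells the counts were 119 and 151.

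The authors' deposited table gives a p-value for each accession from a model of the 2 libraries, which compares those libraries and not the conditions. Among lncRNAs with 1 accession, 36 of 371 (9.7%) had an unadjusted p under 0.05 in the authors' deposited table, 33 of them higher and 3 lower with doxycycline. In the shNS part of the authors' deposited table the count was 11 of 363 (3.03%), with 6 higher and 5 lower. For coding genes with 1 accession the authors' deposited table gave 194 of 5274 (3.68%) in shEXOSC3 and 125 of 5254 (2.38%) in shNS cells. The smallest q among the shEXOSC3 genes in the authors' deposited table was 0.105, so none of them passed an adjusted threshold of 0.05. In the authors' deposited table NIPBL-DT had a p of 5e-05, LINC00938 of 0.0001, LINC01139 of 0.0002 and ZNF143-AS1 of 0.00035.

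Head-to-head neighbours, whose starts lie within 1000 bases on opposite strands, allowed each lncRNA to be set beside a coding gene of the same promoter region in the same libraries. In 159 such pairs the lncRNA had the higher log2 ratio in 129 (81.1%) in shEXOSC3 cells, against 72 (45.3%) in shNS cells at day 7. The lncRNAs of these pairs had a median of 0.39 and their partners of -0.02, with 19 lncRNAs and 2 partners at least 2-fold higher. At day 5 the lncRNA was above its partner in 103 pairs (64.8%) in shEXOSC3 cells and 71 (44.7%) in shNS cells. The starts of the 19 higher lncRNAs lay 50 to 529 bases from the partner's start, with a median of 135. Their partners' log2 ratios ran from -0.67 to 0.55.

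Individual pairs showed how far the RNAs of 1 promoter region could separate. PAPOLA-DT was 1.11 and 4.07 FPKM in shEXOSC3 cells, while PAPOLA, the nuclear poly(A) polymerase gene 50 bases away, was 86.2 and 93.1 FPKM. ELOA-AS1 was 4.23 and 12.3 FPKM while PITHD1, 121 bases away, was 54.1 and 50.6 FPKM. In shNS cells ELOA-AS1 was 9.54 without and 8.43 with doxycycline, so the induced shEXOSC3 library was the highest but the uninduced levels of the 2 lines also differed. DICER1-AS1 was 0.644 and 3.14 FPKM beside DICER1, the microRNA-processing nuclease gene, at 26.4 and 33.4 FPKM. BOLA3-DT was 1.54 and 4.18 FPKM, while BOLA3, an iron-sulfur cluster gene 69 bases away, was 81.6 and 50.8 FPKM. This pair also separated in shNS cells, where BOLA3-DT was 1.01 and 2.47 FPKM and BOLA3 was 83.7 and 66 FPKM. The log2 ratios of BOLA3-DT were 1.03 in shEXOSC3 and 0.78 in shNS cells. In shNS cells PAPOLA-DT was at -0.62 and DICER1-AS1 at 0.20. LncRNAs that were not in a head-to-head position were shifted less: 216 had a median of 0.20 with 11 higher and 0 lower, against 0.38 with 21 higher and 0 lower for the 192 in such a position. Their medians at day 5 were 0.18 and 0.21.

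**Figure D3:**
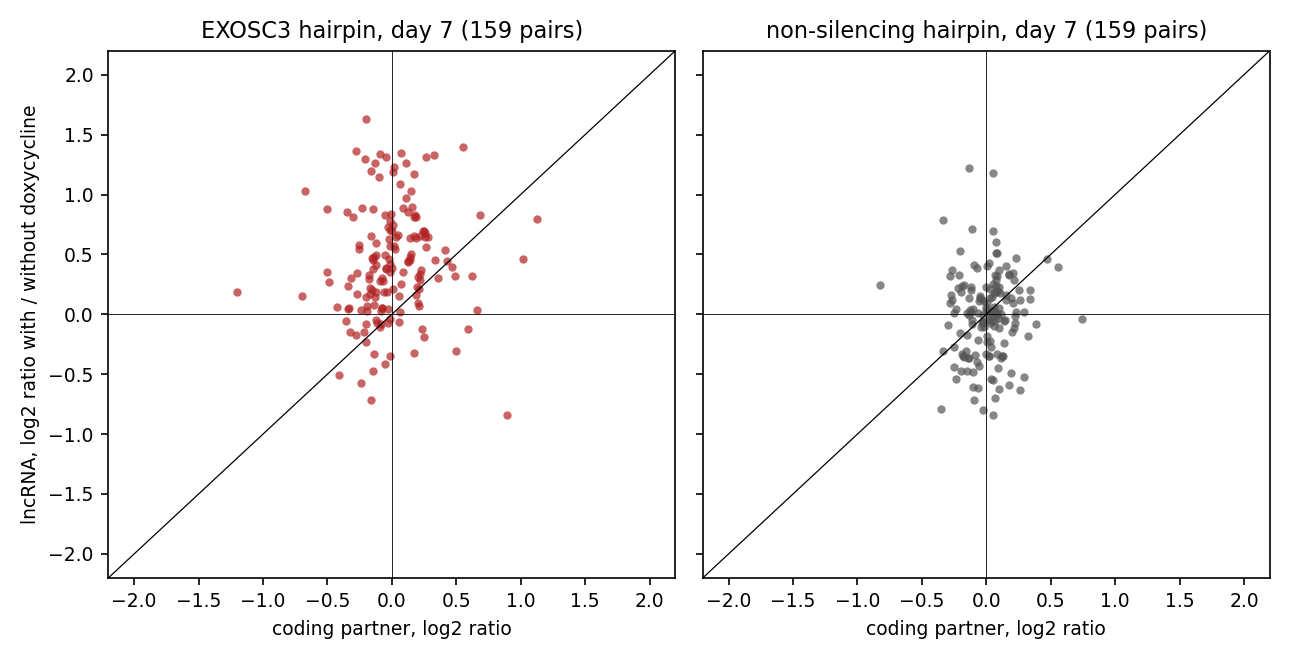
Log2 ratio of the lncRNA (y axis) against that of its head-to-head coding partner (x axis) for 159 pairs at day 7, with shEXOSC3 on the left and shNS on the right; the line marks equal ratios. In shEXOSC3 cells 129 of the 159 points lie above the line, and in shNS cells 72 do.

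Protein-coding genes without introns were also shifted. Of 298 coding genes with 1 exon, 15 were higher (5.03%) and 4 lower (1.34%) in shEXOSC3 cells, with a median log2 ratio of 0.13 and 194 above 0 (65.1%). In shNS cells 0 were higher and 1 lower (0.336%), the median was -0.01 and 48.3% were above 0. Coding genes of 2 or more exons, 11244 in number, had a median of -0.02 with 38 higher and 36 lower in shEXOSC3 cells. The shift was not particular to intronless genes. The 412 coding genes of exactly 2 exons had a median of 0.10, with 7 higher (1.7%), 0 lower and 64.1% above 0. In shNS cells their median was -0.02 and 45.4% were above 0. Without the replication-dependent histone genes, which lack introns and poly(A) tails, 239 intronless genes, H3-5 among them, had a median of 0.21 with 14 higher and 2 lower, against 0.04 with 0 in either direction in shNS cells. On day 5 the 298 genes had a median of 0.08 in shEXOSC3 cells, with 4 higher (1.34%) and 3 lower (1.01%), and of 0.07 in shNS cells. Of the 15 higher genes, 7 stayed at least 2-fold higher after the shNS log2 ratio was subtracted.

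**Figure D4:**
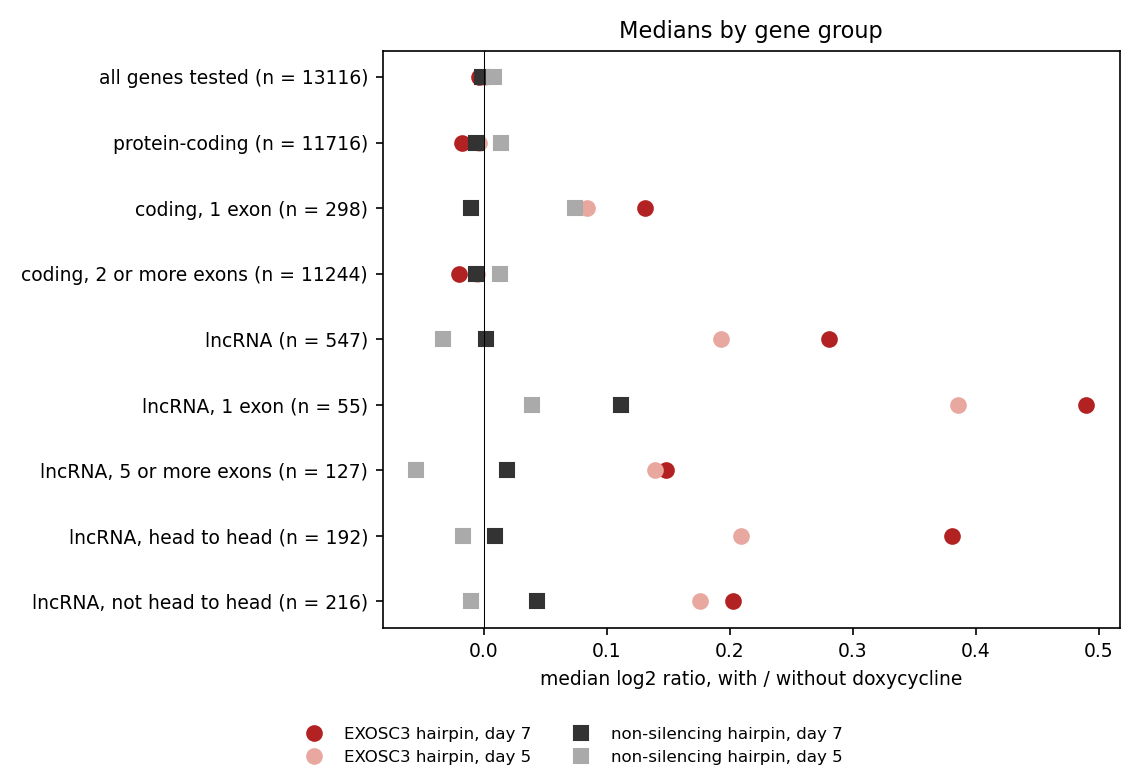
Median log2 ratio (x axis) of coding genes and lncRNAs by exon number and position, with circles for the EXOSC3 hairpin, squares for the non-silencing hairpin, dark at day 7 and pale at day 5. The lncRNA medians at day 7 run up to 0.49 with the EXOSC3 hairpin and up to 0.11 with the non-silencing hairpin, and intronless coding genes lie at 0.13 and -0.01.

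Named intronless genes included transcription factors and genes of other kinds. SOX14, a neural SOX factor, was 1.11 and 4.6 FPKM in shEXOSC3 cells and 0.746 and 0.756 FPKM in shNS cells, and it was listed at 0 and at 0.937 FPKM in the day 5 shEXOSC3 libraries. C6orf120 was 12.1 and 26.9 FPKM (shNS 10.6 and 12.4), and TIGD1, a transposase-derived gene, was 5.83 and 14.8 FPKM (shNS 6.80 and 5.78). PLPP6, a lipid phosphatase gene, was 2.44 and 6.94 FPKM (shNS 2.67 and 3.78), and EID2B was 1.84 and 5.28 FPKM (shNS 1.94 and 1.72). In each of these 5 genes the induced shEXOSC3 library was the highest at day 7. The 5 were picked from the intronless genes at least 2-fold higher there, so this follows largely from the choice. FOXL2, a forkhead factor of the ovary and eyelid, was 0.339 and 1.74 FPKM (1.03), and the adjacent gene FOXL2NB was 1.18 and 6.51 FPKM (1.79), against 0.18 and 0.54 in shNS. H3-5, a histone H3.3 variant gene, had the largest log2 ratio of any long RNA, 2.63 from 13.6 to 89.4 FPKM, with 14.7 and 10.5 FPKM in shNS cells but 23.8 and 26.2 FPKM in shEXOSC3 cells at day 5. H3-5 closely resembles other H3.3 gene copies, so its counts may include reads shared with them. As a gauge of reads outside expressed genes, the summed level of 369 olfactory receptor genes was 16.5 and 20.1 FPKM in shEXOSC3 cells, a ratio of 1.22, and 12.2 and 17.2 FPKM in shNS cells, a ratio of 1.41. Its part in the intronless and lncRNA values was not tested.

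Among spliced coding genes, several of the highest were shared with the control hairpin. VIM, which encodes the intermediate filament vimentin, was 87.7 FPKM without and 431 FPKM with doxycycline in shEXOSC3 cells and 82.9 and 244 FPKM in shNS cells. Both induced libraries were above both uninduced libraries, with log2 ratios of 2.28 and 1.54, and at day 5 the ratios were 2.55 and 2.12. Of the 15 fibroblast and stromal genes listed, 10 reached 1 FPKM. Their summed level was 356 and 392 FPKM in shEXOSC3 and 350 and 352 FPKM in shNS cells at day 7, LUM and DCN were at 0, and their part in the VIM values was not tested. In these bulk libraries more cells of a type and more RNA per cell cannot be told apart. ATF5, a stress-response transcription factor, was 3.09 and 11.5 FPKM (1.61, shNS 0.99), and INHBE was 8.08 and 21.2 FPKM (1.29, shNS 0.80). HBD, a globin gene, was 4.74 and 17.0 FPKM in shEXOSC3 cells and 1.8 and 24.2 FPKM in shNS cells, and it was listed at 0 in all 4 day 5 libraries. NHLH2, a neuronal helix-loop-helix factor, differed by hairpin: it was 1.54 and 5.32 FPKM in shEXOSC3 and 1.22 and 1.05 FPKM in shNS cells. NHLH2 was named by a rule that required a small shNS ratio, so this difference follows largely from the choice.

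The ATF4 amino acid response, which induces amino acid synthesis and transport genes, had like medians above 0 under both hairpins. In shEXOSC3 cells 28 of 29 measured genes (30 listed) lay above 0, with a median log2 ratio of 0.46, 14 at 0.5 or more and 3 at least 2-fold higher. In shNS cells the median was 0.47, with 14 at 0.5 or more and 2 at least 2-fold higher. Among all genes 6.69% had a log2 ratio of 0.5 or more in shEXOSC3 and 3.32% in shNS cells. The 3 genes were CEBPB (3.16 and 9.93 FPKM), the mTOR inhibitor DDIT4 (23.1 and 56.7 FPKM) and the pseudokinase TRIB3 (3.59 and 9.86 FPKM). ASNS, asparagine synthetase, was 102 and 173 FPKM in shEXOSC3 and 114 and 211 FPKM in shNS cells. The list gave like values with both hairpins, and 13 of its 29 genes had a larger log2 ratio in shEXOSC3 than in shNS cells.

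Target genes of p53, which respond to DNA damage and ribosome stress, had medians on opposite sides of 0 in the 2 lines, a difference that was not tested. In shEXOSC3 cells 24 of 26 lay above 0 with a median of 0.33, and in shNS cells 3 did with a median of -0.24. All 26 had a larger log2 ratio in shEXOSC3 than in shNS cells, whereas 6280 of all 13116 symbols (47.9%) did. No p53 target reached 2-fold. In shEXOSC3 cells 7 reached 0.5, against 6.69% of all symbols, and in shNS cells 1 did, against 3.32%. CDKN1A, the cell cycle inhibitor p21, was 20.4 and 33.2 FPKM in shEXOSC3 cells and 14.8 and 9.93 FPKM in shNS cells. The induced shEXOSC3 library was the highest of the 4 and the induced shNS library the lowest. The antiproliferative gene BTG2 was 5.02 and 10.1 FPKM (shNS 3.63 and 3.16), ZMAT3 was 5.81 and 11.7 FPKM (shNS 4.37 and 4.55) and TP53I3 was 11.8 and 20.4 FPKM (shNS 13.1 and 11.4). MDM2, the ubiquitin ligase that restrains p53, was 203 and 247 FPKM, against 163 and 132 FPKM. SESN2, which is also an ATF4 target, was 13.7 and 27.0 FPKM with shNS at 13.6 and 20.1 FPKM. The day 5 medians were 0.24 in shEXOSC3 and -0.07 in shNS cells.

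The lower RNAs included secreted, metabolic and signalling genes. APELA, a secreted peptide hormone of embryonic stem cells, was 158 FPKM without and 72.0 FPKM with doxycycline in shEXOSC3 cells and 150 and 124 FPKM in shNS cells. The induced shEXOSC3 library was the lowest of the 4, with log2 ratios of -1.12 and -0.28, and at day 5 the ratios were -0.87 and -0.37. In the authors' deposited table APELA had a p of 0.0001 and a q of 0.144. FABP7, a fatty acid binding protein gene of neural progenitors, was 9.29 and 3.88 FPKM (shNS 8.85 and 7.67), with a day 5 log2 ratio of -1.60. CFAP95, a cilium gene, was 48.5 and 19.5 FPKM (shNS 41.2 and 36.2), and IDO1, a tryptophan-degrading enzyme, was 10.1 and 4.34 FPKM (shNS log2 ratio -0.11). PPP2R2B, a regulatory subunit of protein phosphatase 2A, was 4.31 and 0.807 FPKM (shNS 6.14 and 5.50), with -1.39 at day 5. For APELA, FABP7, CFAP95 and PPP2R2B the 2 uninduced libraries and the induced shNS library lay above the induced shEXOSC3 library. These genes and IDO1 met a naming rule that required a small shNS ratio at day 7 and a lower day 5 level in shEXOSC3 cells. FABP7 and PPP2R2B were also named by rules without these conditions. For APELA, CFAP95 and IDO1 the small shNS ratio and the day 5 direction therefore follow from the choice. VDAC1, a mitochondrial channel gene, had the lowest log2 ratio of the long RNAs, -1.81 from 7.23 to 1.34 FPKM, but it was 1.38 and 31.6 FPKM in shNS cells, so its uninduced levels differed between the lines. TNNT2, a troponin gene, was at -1.50 over its 7 accessions, while its accession with the highest level was at 1.44.

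Of 27 pluripotency genes measured, out of 31 listed, 2 lay above 0 in shEXOSC3 cells, the median was -0.27, 2 were at least 2-fold lower and 7 were at -0.5 or below, against 4.73% of all genes. In shNS cells the median was -0.25, 1 was at least 2-fold lower and 4 were at -0.5 or below, against 2.94% of all genes. The 2 lower genes were DPPA3, 1.56 and 0.0629 FPKM, and DPPA5, 2.32 and 0.572 FPKM, and DPPA5 had log2 ratios of -1.08 and -1.11 under the 2 hairpins. SOX2, a core pluripotency factor, was 253 and 175 FPKM in shEXOSC3 and 262 and 234 FPKM in shNS cells, with log2 ratios of -0.53 and -0.16. DNMT3B, a de novo DNA methyltransferase, was 395 and 258 FPKM (shNS 415 and 321), and L1TD1 was 868 and 584 FPKM (shNS 855 and 652). The other core factors were no lower in the knockdown than in the control line: POU5F1 was 171 and 154 FPKM (shNS 171 and 139) and NANOG was 30.8 and 23.0 FPKM (shNS 32.6 and 22.1). TCL1B, a gene of early embryos, was 5.27 and 1.58 FPKM (-1.28, shNS -0.69).

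The list of metallothioneins, small metal-binding proteins, had medians below 0 in all 4 comparisons, and its 9 measured genes include the zinc transporter SLC30A1. In shEXOSC3 cells at day 7, 4 of 9 were at least 2-fold lower with a median of -0.79, and in shNS cells 1 of 9 was, with a median of -0.67. Of all symbols, 1.04% were lower in shEXOSC3 and 0.846% in shNS cells. The hairpins were less alike on day 5, with medians of -0.73 and -0.17 and with 1 and 0 genes at least 2-fold lower, against 0.717% and 0.602% of all symbols. Their summed level was 618 and 342 FPKM in shEXOSC3 and 538 and 331 FPKM in shNS cells. MT1E was 123 and 55.1 FPKM (shNS 95.3 and 72.0) and MT1X was 227 and 131 FPKM (shNS 202 and 102). The metallothionein genes are near-identical copies, so the split of reads among them is uncertain.

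Most ribosome biogenesis genes lay below 0 under both hairpins, by less than 2-fold. In shEXOSC3 cells 5 of 35 lay above 0 and in shNS cells 3 did, with medians of -0.39 and -0.17. None was at least 2-fold lower in either line. In shEXOSC3 cells 9 were at -0.5 or below, against 4.73% of all genes. In shNS cells 0 of 35 were, against 2.94% of all genes. NCL, the nucleolar protein nucleolin, was 504 and 277 FPKM in shEXOSC3 and 496 and 405 FPKM in shNS cells. NPM1, nucleophosmin, was 972 and 556 FPKM in shEXOSC3 and 908 and 975 FPKM in shNS cells. The induced shEXOSC3 library was the lowest of the 4 for both genes. On day 5 NPM1 had log2 ratios of -0.39 in shEXOSC3 and -0.02 in shNS cells, but NCL had -0.27 and -0.42, the reverse order. FBL, the methyltransferase of C/D snoRNPs, was 98.6 and 62.0 FPKM (shNS 101 and 91.1), and GNL3, nucleostemin, was 395 and 245 FPKM (shNS 376 and 323). The snoRNP subunit NOP58 was 169 and 107 FPKM and its partner NOP56 was 210 and 144 FPKM, while NOP10, of H/ACA snoRNPs, was 104 and 126 FPKM. The list's summed level was 3970 and 2690 FPKM, against 3950 and 3610 FPKM. The day 5 median was -0.10 in shEXOSC3 and 0.01 in shNS cells. Cytosolic ribosomal protein genes were alike under both hairpins, with medians of -0.15 and -0.18 over 81 genes.

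Abundant long RNAs were examined as a group. Of 1632 long RNAs with a mean of at least 50 FPKM, 92 had a log2 ratio of -0.5 or below in shEXOSC3 cells (5.64%) and 19 of 0.5 or above (1.16%). In shNS cells the counts were 24 (1.47%) and 9 (0.551%). The medians of all 1632 were -0.13 and -0.09. Of the 92, 85 were below 0 in shEXOSC3 cells at day 5, with a median there of -0.39, and 86 were below 0 in shNS cells at day 7, with a median of -0.23. They included CFDP1, a chromatin gene (77.7 and 38.7 FPKM), AASS, a lysine-degrading enzyme (357 and 196 FPKM), the histone chaperone NASP (159 and 90.6 FPKM) and prothymosin PTMA (1520 and 972 FPKM). Above, beside VIM and DDIT4, was VHRT, a lncRNA at 86.8 and 156 FPKM with log2 ratios of 0.84 in shEXOSC3 and -0.25 in shNS cells.

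**Figure D5:**
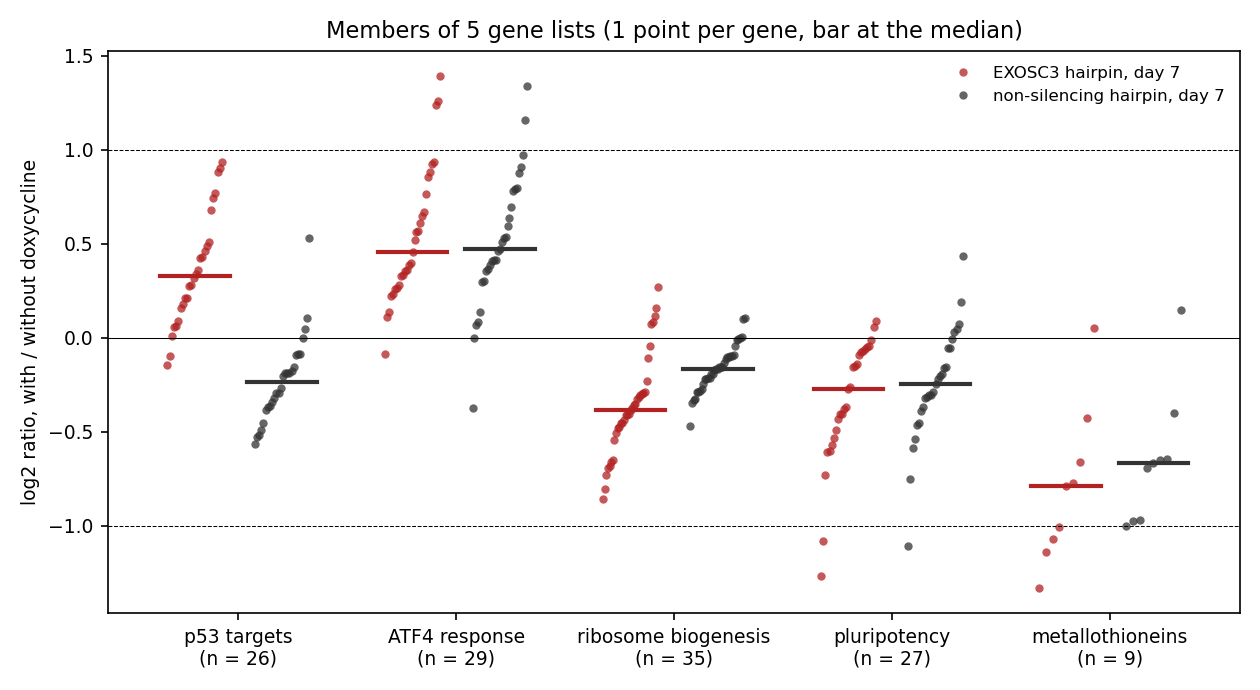
Log2 ratio (y axis) of every measured gene of 5 lists at day 7, red for the EXOSC3 and black for the non-silencing hairpin, in order of size, with a bar at the median and dashed lines at 2-fold. The p53 targets have medians of 0.33 and -0.24 and ribosome biogenesis of -0.39 and -0.17, while the ATF4 response, at 0.46 and 0.47, gives like values.

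Genes of cell division, splicing and metabolism showed small medians. S phase genes (38) had medians of -0.21 in shEXOSC3 and -0.03 in shNS cells, with 6 above 0, although TYMS, thymidylate synthase, was 25.4 and 40.7 FPKM. Mitosis genes (33) had medians of -0.13 and -0.05. SR and related splicing factors (19) had medians of -0.22 and -0.05, led by TRA2A at 79 and 50.1 FPKM and LUC7L at 35.3 and 23.2 FPKM. Cholesterol synthesis genes (32) had medians of 0.08 and 0.01, interferon genes (19) of 0.06 and -0.09 with none past 2-fold, and nonsense-mediated decay genes (18) of -0.05 and 0.04.

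Markers of differentiated cells were mostly below 1 FPKM, so their lists cannot be compared as wholes. Of 20 mesendoderm genes 4 reached 1 FPKM, of 15 definitive endoderm genes 3, of 18 mesoderm genes 6, of 27 neuroectoderm genes 9, of 13 neural crest genes 4 and of 23 trophectoderm genes 6. NODAL, the ligand that maintains pluripotency and specifies mesendoderm, was 4.76 and 8.22 FPKM in shEXOSC3 cells and 3.64 and 2.37 FPKM in shNS cells, with log2 ratios of 0.68 and -0.46. The induced shEXOSC3 library was the highest and the induced shNS library the lowest. At day 5 NODAL had log2 ratios of 0.42 and 0.25. The 9 neuroectoderm genes had a median of 0.02, from VIM at 2.28 to FABP7 at -1.07, against -0.07 in shNS cells.

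Short RNAs differed by 2-fold about as often in the control line. Among 323 microRNA genes 70 were higher and 55 lower in shEXOSC3 cells, and 72 and 54 in shNS cells. C/D snoRNAs, guides of ribose methylation, gave 48 higher and 27 lower of 159, against 42 and 18. In shEXOSC3 cells 21.7% of microRNA genes and 30.2% of C/D snoRNAs were higher, against 1.88% of all symbols. In shNS cells these shares were 22.3%, 26.4% and 1.2%. Of all symbols, 1.04% were lower in shEXOSC3 and 0.846% in shNS cells. H/ACA snoRNAs, guides of pseudouridylation, gave 25 higher and 5 lower of 96 with a median of 0.28, against 16 and 10 with a median of 0. SNORA33 was 669 and 1860 FPKM and SNORA55 was 305 and 1055 FPKM in shEXOSC3 cells. Both were chosen after their values were seen, and their control values are not given here. Of 6 small nuclear RNA genes 3 were higher, with a class median of 0.97, against -0.28 and 0 higher in shNS cells. At day 5 the class medians were 0.08 in shEXOSC3 and -0.35 in shNS cells, with 0 higher in either line. The variant U1 gene RNVU1-19 was 573 and 2200 FPKM in shEXOSC3 and 498 and 364 FPKM in shNS cells, and the minor spliceosome gene RNU4ATAC was 385 and 1410 FPKM, against 248 and 294 FPKM. At day 5 the levels of RNU4ATAC lay between 6.01 and 8.05 FPKM in all 4 libraries, far below every day 7 level. RNVU1-19 was then 13.5 and 23.5 FPKM in shEXOSC3 and 35.3 and 50.7 FPKM in shNS cells. Single snoRNAs stood at 0 in 1 library and high in the other: SNORD20 was listed at 0 without and at 869 FPKM with doxycycline, while SNORD59B was 288 FPKM without and listed at 0 with it.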

How the data were processed

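RNA of H1 cells was measured by RNA-seq of total RNA after removal of ribosomal RNA (Ribo-Zero, ScriptSeq v2), per the labels' protocols. The submitters' processing notes name CASAVA 1.8, TopHat, Cufflinks and the human genome build hg19 (GRCh37). Tool versions beyond that, the annotation release, the normalisation option and the strand setting are in none of the sources used here. The authors deposited 4 tables, 1 for each hairpin and day, with an FPKM value per RefSeq accession in each of 2 libraries and a p-value and q-value per accession, per the file headers. The tables hold 0 entries for the spike-in RNA that the labels mention, so levels are relative to the total. Depth in counts is unknown. Of 49235 accessions 48147 (97.8%) matched a symbol in the RefSeq names of GRCh38.p14, and 1088 did not. FPKM was summed by symbol, 55 symbols with a failed estimate in any table were left out, and 13116 symbols with a mean of at least 1 FPKM over the 8 libraries were compared. Exon numbers were found for 12784 symbols and start regions for 408 of 547 lncRNAs. RNA classes and exon numbers came from RefSeq and GENCODE 29, on GRCh38, used for names and not for the deposited coordinates.

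The log2 ratio used a pseudocount of 1 FPKM, and higher or lower means a log2 ratio of at least 1 in size. Counts at 0.5 describe smaller differences. The calculation used python 3.11.15, pandas 2.3.3 and numpy 2.4.6 and was tested on simulated data. Each list or class is described by its counts and median beside those of all symbols. With 1 library per group no test was made, and any p or q is the authors' own.

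Named genes were EXOSC3 and the exosome subunits, the 15 highest and 15 lowest long RNAs past 2-fold, the 12 highest and 12 lowest that were within 0.5 of 0 in shNS at day 7 and at least 0.5 the same way in shEXOSC3 at day 5, up to 3 members at each end of a list or class, the 3 highest and 3 lowest of at least 50 FPKM, POU5F1, NANOG and SOX2. Other genes and lncRNAs named, among them the head-to-head pairs, the intronless genes and further list members, were chosen after their values were seen. The gene lists, classes and comparisons were chosen with earlier results of these data known. The alternatives were pseudocounts of 0.1 and 5 FPKM, no minimum or a minimum of 5 FPKM, the accession with the highest mean in place of the sum, centring on the median, subtraction of the shNS log2 ratio, symbols of 1 accession and removal of short RNAs.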

Additional observations from a re-analysis of the deposited data

Results flagged for a closer look

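The p53 target list had a median log2 ratio of 0.326 in shEXOSC3 cells at day 7 and 0.244 at day 5, against -0.236 and -0.0727 in shNS cells. It is given here because the medians of the 2 hairpins lay on opposite sides of 0 on both days. The fibroblast and stromal list, of which 10 of 15 genes reached 1 FPKM, met the same condition, with medians of 0.162 and 0.486 in shEXOSC3 cells and -0.0834 and -0.114 in shNS cells. Neither difference between the hairpins was tested, because each group held 1 library.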

How the results depend on the processing

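No paired analysis was possible because each group held 1 library and the labels give no replicate numbers to serve as a block. A model over both days, which treats the days as replicates, was not run. The EXOSC3 log2 ratio of -0.98 became -1.03 with a pseudocount of 0.1 FPKM, -0.80 with 5 FPKM, -1.37 for the accession with the highest mean and -0.84 after the shNS log2 ratio was subtracted. With pseudocounts of 0.1 and 5 FPKM the 246 higher symbols became 382 and 154, and the 137 lower became 225 with 0.1 FPKM. With the accession of the highest mean in place of the sum, 487 were higher and 431 lower. After shNS was subtracted 230 were lower, and without short RNAs 97 were higher and 45 lower.

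The alternatives for RNA classes were chosen after seeing the data. The 42 higher lncRNAs became 85 and 3 with pseudocounts of 0.1 and 5 FPKM, 10 with a minimum of 5 FPKM and 26 among symbols of 1 accession. The 2 lower lncRNAs became 11 and 0 with pseudocounts of 0.1 and 5 FPKM, 6 with no minimum, 1 with a minimum of 5 FPKM and 4 for the accession with the highest mean. The 53 higher coding genes became 137 and 7 with pseudocounts of 0.1 and 5 FPKM, 31 with a minimum of 5 FPKM, 295 for the accession with the highest mean and 31 among symbols of 1 accession. The 40 lower coding genes became 119 and 5 with pseudocounts of 0.1 and 5 FPKM, 19 with a minimum of 5 FPKM and 333 for the accession with the highest mean. After shNS was subtracted 56 lncRNAs were higher and 3 lower. The share of pairs with the lncRNA above its partner ran from 76.4% to 81.8%.

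After shNS was subtracted, the log2 ratio changed sign for HBD (-1.53), SCARNA18 (-0.24), SCARNA21 (0.17), H2BC1 (0.10), DDIT4 (-0.0799) and DPPA5 (0.0259). For the accession with the highest mean, TNNT2 changed to 1.44. Of the 84 named genes at least 2-fold higher, 52 stayed so after subtraction and 24 with a pseudocount of 5 FPKM. The cause of these differences was not tested.

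With 1 library per group the spread between cultures is unknown for every value. Most higher lncRNAs lay at a few FPKM, where the pseudocount and the minimum set the counts most.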

Other observations

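Further gene groups had these medians in shEXOSC3 and shNS cells at day 7. WNT targets (6 of 13 measured) had a median log2 ratio of -0.32 in shEXOSC3 and -0.03 in shNS cells, with CCND1, cyclin D1, at 112 and 79.4 FPKM in shEXOSC3 and 104 and 104 FPKM in shNS cells. On day 5 the WNT medians were 0.04 and -0.18. Retinoic acid and HOX genes (6 of 23) had medians of -0.30 and -0.12, blood and endothelial genes (2 of 15) of -0.43 and -0.32 and mitochondrial chaperones and proteases (11 of 13) of -0.20 and -0.10. Zinc finger genes (416) had a median log2 ratio of -0.03, against -0.02 in shNS cells, and histone genes (62) had medians of -0.05 and -0.12. Mitochondrial ribosomal protein genes (80) had medians of -0.11 and -0.16, nuclear genes of the respiratory chain (40) of -0.11 and -0.09, glycolysis and hypoxia genes (28) of -0.13 and -0.19 and cytosolic heat shock genes (12) of -0.26 and -0.24. Unfolded protein response genes (19) had medians of -0.07 and -0.01. MicroRNA host genes (10 of 20) had medians of 0.03 and 0.10, with 5 above 0 in shEXOSC3 and 7 in shNS cells. At the upper end, MIR181A2HG was 1.86 FPKM without and 4.67 FPKM with doxycycline in shEXOSC3 cells (shNS 1.81 and 2.72) and MIR22HG was 2.89 and 5.52 FPKM (shNS 2.94 and 3). At the lower end, DGCR8 was 15.1 and 12.3 FPKM (shNS 14.7 and 13.2) and MIR17HG was 75.4 and 64.2 FPKM (shNS 56.8 and 66.5). LINC-PINT was 2.31 and 5.83 FPKM (shNS 1.62 and 3.32). The vault RNA VTRNA1-3 was 1447 and 3671 FPKM (shNS 1840 and 1510).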
